A study of Mus musculus with 12 samples.

Results

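Subunit genes of oxidative phosphorylation, 83 in all, were followed through embryonic mouse hearts and heart organoids (HOs). They were chosen by name from the 26190 genes of the expression table, as the Nduf (a, b, c, s and v), Sdh, Uqcr, Cox4 to Cox8 and Atp5 genes, of which 86 matched. A count of at least 10 in at least 3 libraries was required, and Ndufa11b, Cox7b2 and Cox8c did not reach it (Cox8c was listed at 0 in all 12 libraries). By complex, 36 genes belonged to complex I, 4 to complex II, 8 to complex III, 18 to complex IV and 17 to complex V. Cox7a2l carries a subunit-like name but is a factor of supercomplex assembly, and it was kept.

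The libraries were made from bulk RNA of 4 groups with 3 replicates each, all labelled C57BL/6 with no transgene named. Atria and ventricles were dissected from embryonic hearts at E11.5 (E11.5H). From HOs cultured for 13 days, the parts resembling atrium and ventricle were cut out. HOs were grown, as the methods describe, from embryoid bodies of mouse embryonic stem cells (ESCs) on a laminin-entactin matrix with FGF4 and later BMP4, a GSK3 inhibitor (BIO) and LIF, and the study used ESCs of C57BL/6 and of a C57BL/6 cross with JF1. The labels give neither the ESC line nor whether a library pooled several hearts or HOs, so p-values measure only the spread between these libraries.

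Oxidative phosphorylation is the last stage of respiration. Complexes I and II pass electrons from NADH and succinate to ubiquinone, complex III passes them on to cytochrome c and complex IV to oxygen, and complex V, the ATP synthase, uses the proton gradient to make ATP. Heart muscle is among the tissues richest in these complexes, and several complex IV subunits exist as a ubiquitous (liver-type) and a muscle (heart-type) isoform that are exchanged as striated muscle matures.

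Each library held between 23971258 and 30540993 counts, and the 83 genes took 3.04% to 3.61% of them in E11.5H against 1.90% to 2.74% in HOs. Levels are given as FPKM (fragments scaled by transcript length and library total), which allows genes of different length to be compared. CPM are counts scaled to the library total corrected by the TMM factor of edgeR, so they differ from plain shares of the counts. A list of 16 cardiomyocyte genes, none of them at 0 in all libraries of a group, was summed in this way. The sum was 40888 to 50764 CPM in E11.5H, 1053 to 3254 CPM in atrium-like parts and 3696 to 11175 CPM in ventricle-like parts. Genes of hepatocytes and visceral endoderm summed to at most 12.1 CPM in E11.5H, to between 968 and 26064 CPM in atrium-like parts, with replicate 1 highest, and to between 50.6 and 9716 CPM in ventricle-like parts. Gut epithelium genes summed to between 125 and 177 CPM in E11.5H and to between 1101 and 10068 CPM in HOs. Erythroid genes summed to between 5159 and 9655 CPM in atria, to between 8256 and 54774 CPM in ventricles, with replicate 3 highest, and to at most 21.9 CPM in HOs. These lists move with the groups compared here, and their part in the results was not tested. In such bulk RNA, fewer cells of a type and less RNA per cell cannot be told apart.

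As summed FPKM, all complexes together were most abundant in ventricles and least abundant in atrium-like parts. The summed FPKM of the 83 genes was 29709 to 34507 in atria, 34706 to 35641 in ventricles, 19177 to 19954 in atrium-like parts and 20675 to 27163 in ventricle-like parts, and no 2 of these ranges overlapped. Complex V, which turns the proton gradient into ATP, held the largest sum in E11.5H, with 10732 to 12325 in atria and 12413 to 12797 in ventricles, against 5709.8 to 6127 in atrium-like parts and 6289 to 8134 in ventricle-like parts. In HOs the largest sum was that of complex IV, the oxidase, with 6046 to 6874 in atrium-like parts and 6545 to 8846 in ventricle-like parts, against 8445 to 10055 in atria and 9944 to 10223 in ventricles. Complex I, the NADH dehydrogenase with the most subunits, stood at 6833 to 7812 in atria, 7741 to 7893 in ventricles, 4644 to 4965 in atrium-like parts and 5437 to 6816 in ventricle-like parts. The smaller sums of complexes II and III followed the same order of embryo over HO. Complex II, succinate dehydrogenase, summed to 1007 to 1155 in atria, 1289.57 to 1338 in ventricles, 609.503 to 762 in atrium-like parts and 641 to 884 in ventricle-like parts. Complex III, the cytochrome bc1 complex, summed to 2692 to 3161 in atria, 3275 to 3389.98 in ventricles, 1701 to 2002 in atrium-like parts and 1763 to 2485 in ventricle-like parts. For each complex every HO library stood below every E11.5H library, except that in complex IV the highest ventricle-like library (8846) stood above the lowest atrial one (8445).

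**Figure D1:**
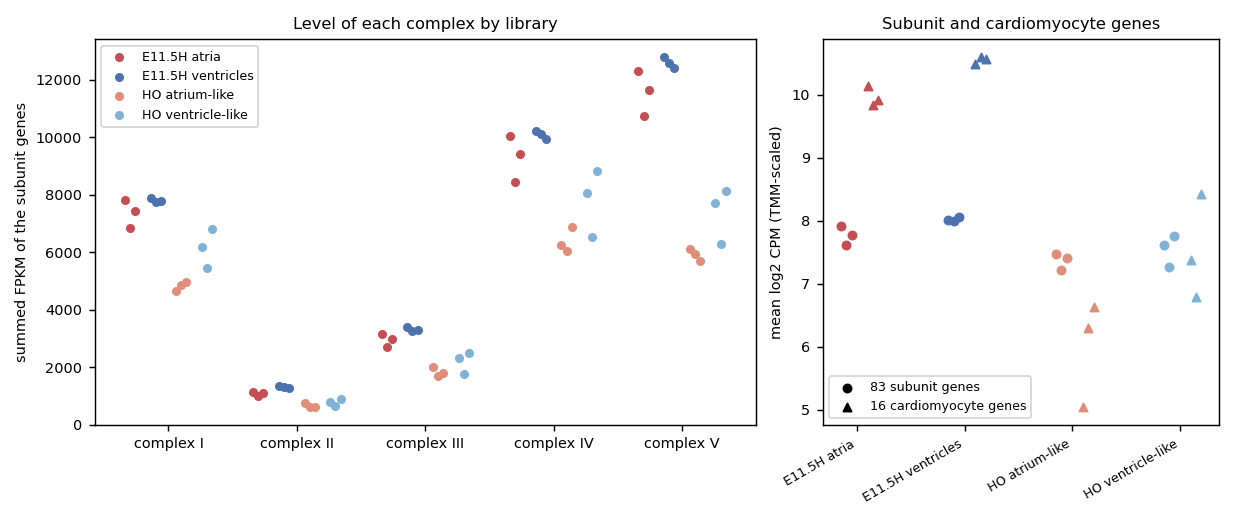
Left, summed FPKM of the subunit genes of each complex by library and group. Right, mean log2 CPM of the 83 subunit genes (circles) and of the 16 cardiomyocyte genes (triangles) in the same libraries. The mean log2 CPM of the subunit genes ran from 7.21 in the lowest HO library to 8.06 in the highest ventricle, and that of the cardiomyocyte genes from 5.04 to 10.6.

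The mean log2 CPM, in which every gene weighs alike, was 7.61 to 7.92 in atria, 7.99 to 8.06 in ventricles, 7.21 to 7.47 in atrium-like parts and 7.27 to 7.75 in ventricle-like parts. Unlike the summed FPKM, these ranges overlapped between the HO parts and between ventricle-like parts and atria. The same mean of the cardiomyocyte genes was 9.84 to 10.1 in atria, 10.5 to 10.6 in ventricles, 5.04 to 6.63 in atrium-like parts and 6.79 to 8.43 in ventricle-like parts. By complex, every HO library stood below every E11.5H library on this scale too, except in complex IV, whose mean log2 CPM was 6.65 to 7.13 in atria, 7.32 to 7.40 in ventricles, 6.99 to 7.42 in atrium-like parts and 7.08 to 7.67 in ventricle-like parts. On the log2 scale the cardiomyocyte genes spanned a wider range than the subunit genes.

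The order of genes within a group was broadly set by the same subunits. Atp5b, the catalytic beta subunit of the ATP synthase, had the highest FPKM in every group, with 1953 ± 42.7 (SD, n = 3) in atria, 2173 ± 31.6 in ventricles, 926 ± 104 in atrium-like parts and 1223 ± 223 in ventricle-like parts. Next stood Cox6b1, a complex IV subunit that helps hold its dimer together, and Atp5g3, a subunit c of the ATP synthase rotor, in both chambers of E11.5H. In HOs the next were Cox8a and Cox6b1, both of complex IV. At the low end stood Ndufa4l2 in atria (1.29 ± 1.10 FPKM) and Cox6b2, known as the testis isoform of Cox6b1, in ventricles (2.42 ± 0.240), atrium-like (8.80 ± 2.05) and ventricle-like parts (11.4 ± 5.19).

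**Figure D2:**
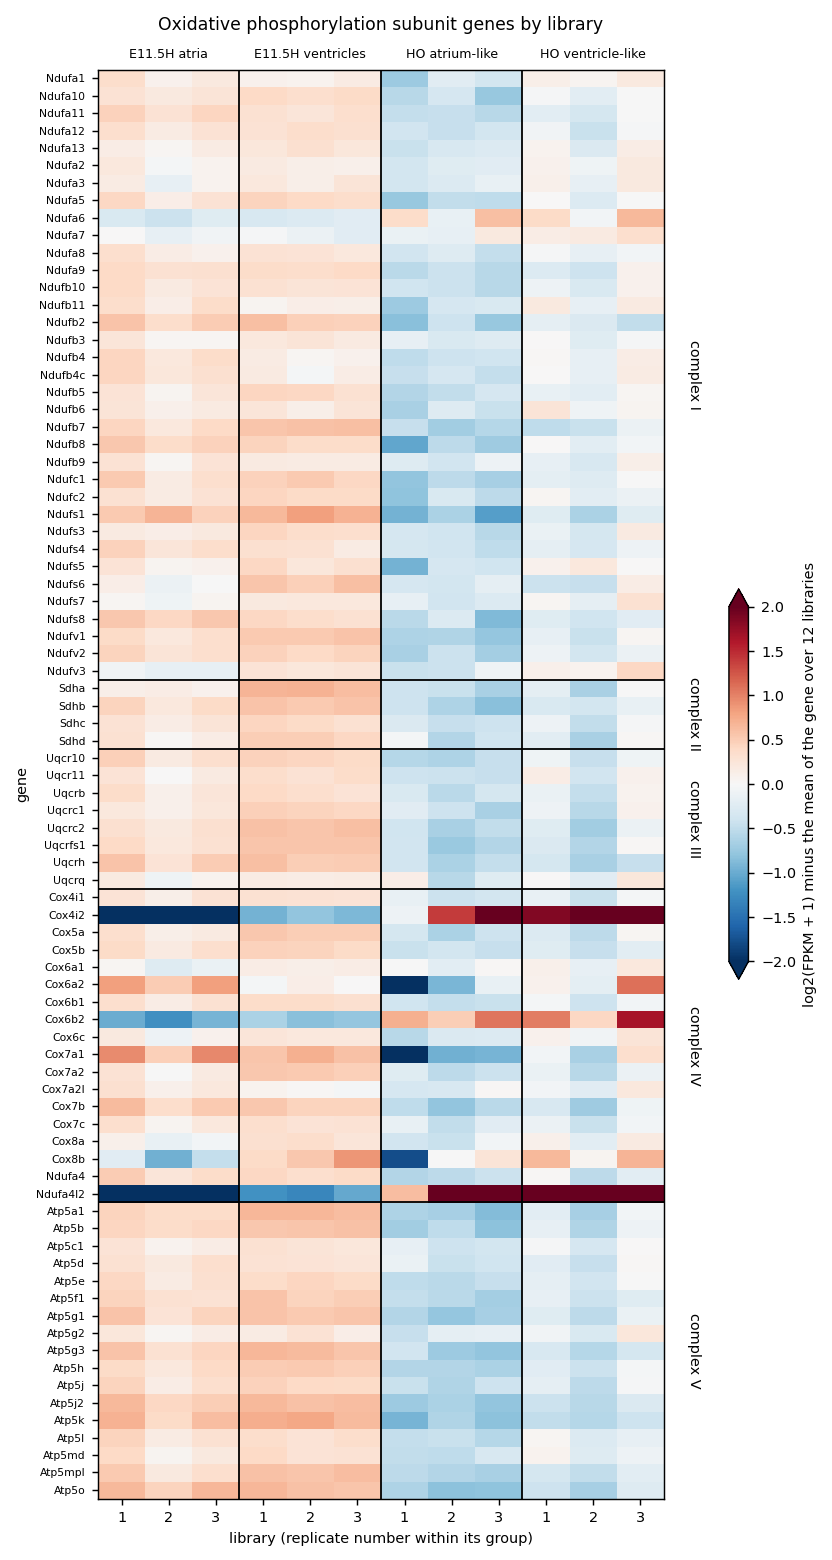
Level of the subunit genes (rows, by complex) in each of the 12 libraries (columns, by group), as log2(FPKM + 1) minus the mean of the gene over all libraries, with colours limited to ±2. On this FPKM scale most rows are high in the E11.5H columns and low in the HO columns, while Ndufa4l2, Cox4i2 and Cox6b2 are high in HOs.

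The chambers of E11.5H were compared to ask how atria and ventricles differ. With TMM scaling most subunit genes stood slightly lower in atria than in ventricles, and the median fall was largest in complex II. Of the 83 genes, 22 were called lower in atria and 1 higher (edgeR quasi-likelihood test, adjusted p under 0.05 over all 14536 genes tested), where 7.16% of all genes were called lower and 6.47% higher. The log2 fold change was negative for 73 of 83 genes, with a median of -0.18 against 0.01 for all genes, and under a scaling that sets the cardiomyocyte genes equal the members' median turned to 0.39, below the 0.59 of all genes, with 72 of 75 calls higher. Of the 16 cardiomyocyte genes used for that scaling, 4 were themselves called higher and 7 lower in atria with TMM scaling (edgeR), so this reference also differed between the chambers. Only 3 of the 23 calls were past a log2 fold change of 1, a size that 4.9% of all genes passed with a call. The count of calls was 43 without replicate 1 of the atria, where 13.4% of all genes were called in either direction, and 15 without replicate 3 of the atria or replicate 2 of the ventricles, where 8.72% and 8.59% were. When the HO libraries shared the fit, 0 members and only 32 of all 16494 genes (0.194%) were called, with 8 members and 1233 genes at an unadjusted p under 0.05 (edgeR).

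By complex, 7 of 36 genes of complex I, 3 of 4 of complex II, 3 of 8 of complex III, 7 of 18 of complex IV and 2 of 17 of complex V were called lower in atria, with medians of -0.15, -0.33, -0.21, -0.21 and -0.17. In complex I the largest fall was that of Ndufs6, an accessory subunit of the NADH-binding arm, with 159, 134 and 144 FPKM in atria and 214, 202 and 221 in ventricles. No atrial library reached a ventricular one, and the log2 fold change was -0.61 (SE 0.09, edgeR adjusted p = 0.00165). Sdha, the flavoprotein that oxidises succinate, had 145, 148 and 141 FPKM in atria and 215, 218 and 204 in ventricles. These groups were again apart, with a log2 fold change of -0.62 (SE 0.06, edgeR adjusted p = 6.92e-05). Of the other complex II genes, the membrane anchor Sdhd had a log2 fold change of -0.38 (adjusted p = 0.0121) and the iron-sulphur subunit Sdhb of -0.28 (adjusted p = 0.0415). The call for Sdhb held in 1 of 6 fits that left out a library, that without replicate 1 of the atria, and the call for Sdhd was lost without replicate 3 of the atria or replicate 2 of the ventricles. The second anchor, Sdhc, was not called, with -0.20 (adjusted p = 0.0800).

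Uqcrc2, a core protein of complex III, had 208, 192 and 208 FPKM in atria and 246 to 254 in ventricles, all above the atria. It was lower in atria by a log2 fold change of -0.37 (SE 0.07, edgeR adjusted p = 0.00482). Atp5a1, the alpha subunit of the ATP synthase, had 886, 846 and 839 FPKM in atria and 1001 to 1032 in ventricles. It was 1 of only 2 complex V genes called, with a log2 fold change of -0.32 (SE 0.05, edgeR adjusted p = 0.00316). The folds named here for Sdhb, Sdhc, Sdhd, Uqcrc2 and Atp5a1 turned positive under the scaling to the cardiomyocyte genes, and those for Ndufs6 and Sdha stayed negative.

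The HOs were compared with the matching chambers to ask how close the parts come to the embryonic heart. With TMM scaling, 13 and 16 of the 17 ATP synthase genes were called lower in atrium-like and ventricle-like parts, beside some genes of every other complex, while the complex IV isoforms Ndufa4l2, Cox4i2 and Cox6b2 were called higher in both parts. Between atrium-like parts and atria, 40 of the 83 genes were called lower and 3 higher, where 12.5% of the 15418 genes tested were called lower and 19% higher (edgeR). Between ventricle-like parts and ventricles, 56 were called lower and 3 higher, where 13.8% of the 15094 genes tested were called lower and 15.7% higher (edgeR). The log2 fold change was negative for 76 and 77 of the 83 genes, with medians of -0.55 and -0.58 against 0.06 and 0.09 for all genes, but scaled to the cardiomyocyte genes all 83 were called higher in both comparisons, with medians of 3.63 and 2.51 against 4.16 and 3.26 for all genes. Of the calls, 10 and 14 were past a log2 fold change of 1, a size that 24.8% and 18.9% of all genes passed with a call.

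The 2 comparisons share no library, but the labels do not say whether same-numbered HO parts came from the same HOs. All 3 genes called higher were the same, and 36 genes were called lower in both, which is 90.0% of the 40 and 64.3% of the 56. The overlap of calls over all genes was not computed, so whether the members overlapped more than other genes was not tested. The number of calls depended on single libraries. Between atrium-like parts and atria it was 8 of 83 (9.64%) without replicate 1 or replicate 3 of the atria, where 10.6% and 11.02% of all genes were called, 12 (14.5%) without replicate 2 of the atria, where 10.8% were, and 24 (28.9%) without replicate 3 of the atrium-like parts, where 21.2% were. Without replicate 1 or 3 of the atria the share of members called was thus near that of all genes, and the excess of the full comparison (51.8% of members against 31.5% of all genes, in either direction) was not seen. Between ventricle-like parts and ventricles it was 19, 20 and 19 (22.9%, 24.1% and 22.9%) without replicate 1, 2 and 3 of the ventricles, where 9.11%, 8.54% and 9.33% of all genes were called, and 39 (47.0%) without replicate 1 of the ventricle-like parts, where 19.3% were. The cardiomyocyte list had 15 of 16 genes called lower in atrium-like parts (median -3.97) and 14 in ventricle-like parts (median -2.85), and all 6 genes of a proliferation list were called lower in both (medians -1.54 and -1.91). The part of these lists in the subunit results was not tested.

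**Figure D3:**
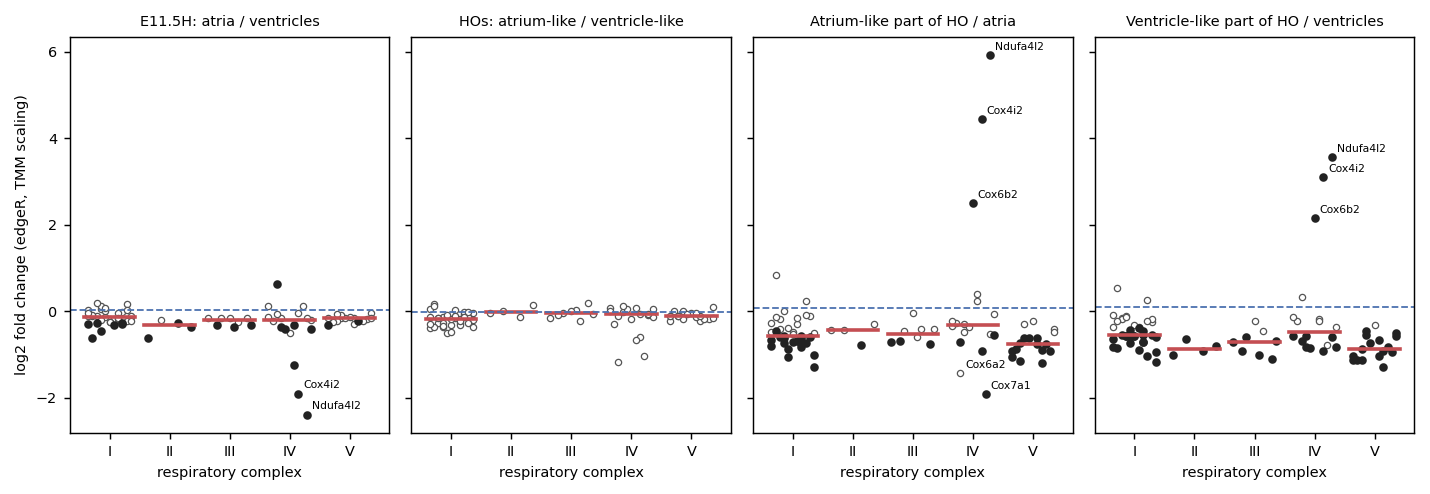
Log2 fold change of each subunit gene by complex in 4 comparisons, with filled points for an edgeR adjusted p under 0.05, red bars for the median of the complex and a dashed line for the median of all genes tested. In both HO comparisons the points of complex V lie below the median of all genes (medians -0.76 and -0.87), a direction that turns under the scaling to the cardiomyocyte genes.

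By complex, the genes called lower in atrium-like parts were 19 of 36 in complex I, 1 of 4 in complex II, 3 of 8 in complex III, 4 of 18 in complex IV and 13 of 17 in complex V, with medians of -0.57, -0.44, -0.53, -0.32 and -0.76. In ventricle-like parts they were 22, 4, 6, 8 and 16, with medians of -0.55, -0.87, -0.70, -0.47 and -0.87. Under the scaling to the cardiomyocyte genes all of these medians were positive, since all 83 genes then had a positive log2 fold change. With TMM scaling, complex IV, with its isoforms, had the smallest median fall in both.

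Ndufs1, the largest iron-sulphur subunit of complex I, had 84.6, 93.9 and 81.2 FPKM in atria, 92.0, 104 and 95.1 in ventricles, 29.9, 37.2 and 26.6 in atrium-like parts and 49.0, 37.3 and 49.5 in ventricle-like parts. Every HO library stood below every E11.5H library. Its log2 fold change was -1.30 (SE 0.16, edgeR adjusted p = 0.00373) against atria and -1.19 (SE 0.15, edgeR adjusted p = 0.00412) against ventricles, the largest fall in complex I in each. Its locus overlaps Ino80dos on the opposite strand, and whether the counting used strand is not given in the sources used here. A complex I gene that ran the other way, named after its values were seen, was Ndufa6, an accessory subunit of the matrix arm. It had 243, 223 and 253 FPKM in atria and 389, 271 and 454 in atrium-like parts, which did not overlap, with a log2 fold change of 0.83 (SE 0.26) that was not called (edgeR adjusted p = 0.0545). Against ventricles (240.5, 248 and 256), ventricle-like parts had 390.4, 289 and 472 FPKM, with a log2 fold change of 0.54 that was not called either (edgeR adjusted p = 0.0822). Without replicate 2 of the HO parts both were called, at 1.06 and 0.73.

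In complex II, Sdha had 99.8, 97.4 and 84.8 FPKM in atrium-like parts and 117, 85.1 and 132 in ventricle-like parts, all below both chambers of E11.5H. It was called lower against ventricles (-1.02, SE 0.18, edgeR adjusted p = 0.0112) and not against atria (-0.44, edgeR adjusted p = 0.0820). Sdhb had 252, 221 and 188 FPKM in atrium-like parts against 458, 390.4 and 441 in atria, and 273, 261 and 304 in ventricle-like parts against 502, 484 and 503 in ventricles. It was called lower in both, with -0.78 (SE 0.21, edgeR adjusted p = 0.0329) and -0.92 (SE 0.11, edgeR adjusted p = 0.00325), the first in only 2 of 6 fits that left out a library, those without replicate 1 or 2 of the atrium-like parts. Sdhc and Sdhd were called against ventricles (-0.66, adjusted p = 0.0226, and -0.82, adjusted p = 0.0229) and not against atria (-0.44, adjusted p = 0.104, and -0.29, adjusted p = 0.410). The calls of Sdha, Sdhc and Sdhd against ventricles were lost without any 1 of the ventricle libraries, with folds of nearly the same size (Sdha -1.03 to -1.04, Sdhc -0.66 to -0.68, Sdhd -0.83), and those of Sdhc and Sdhd also without replicate 1 of the ventricle-like parts (-0.72 and -0.85), while Sdha and Sdhc were called against atria without replicate 1 of the atrium-like parts (-0.61 and -0.60).

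In complex III, Uqcrh, the hinge protein that helps cytochrome c dock, had 525, 429 and 502 FPKM in atria, 537, 499 and 504 in ventricles, 270.4, 227 and 255 in atrium-like parts and 278, 226 and 256 in ventricle-like parts. Every HO library stood below every E11.5H library. It was lower against atria by a log2 fold change of -0.76 (SE 0.20, edgeR adjusted p = 0.0307) and against ventricles by -1.11 (SE 0.12, edgeR adjusted p = 0.00270). The first call held in 2 of 6 fits that left out a library, and was lost without any 1 of the atria (-0.70 to -0.87) or without replicate 3 of the atrium-like parts (-0.78). In complex V, Atp5k, subunit e of the ATP synthase membrane part, had 457, 368 and 432 FPKM in atria, 464, 481 and 437 in ventricles, 147, 184 and 159 in atrium-like parts and 200.5, 189 and 210 in ventricle-like parts. The HO and E11.5H levels were far apart, with log2 fold changes of -1.19 (SE 0.15, edgeR adjusted p = 0.00443) and -1.30 (SE 0.10, edgeR adjusted p = 0.00136), the largest falls of their complex. In complex IV, Cox7b, a small subunit of the oxidase, had 309, 290 and 289 FPKM in ventricles and 169, 129 and 199 in ventricle-like parts. This was the largest called fall of complex IV against ventricles (-0.93, SE 0.17, edgeR adjusted p = 0.0135), and the call was lost without any 1 of the ventricle libraries (-0.92 to -0.96).

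The promoters of Atp5k and Uqcrh, the genes with the largest called fall in complexes V and III against both chambers, are printed here. They are given as the 250 bases before the RefSeq start on GRCm38.p6, 5′ to 3′ on the strand of the gene. Atp5k lies on the minus strand of chromosome 5 with its promoter at chr5:108434400-108434649, and its capitals mark a match to the core of the NRF1 element (GCGCATGCG, met on both strands, which overlap). Uqcrh lies on the minus strand of chromosome 4 with its promoter at chr4:116075071-116075320, and its capitals mark a CCAAT box and, in reverse, a core of the ETS family element (CCGGAAG).
Atp5k: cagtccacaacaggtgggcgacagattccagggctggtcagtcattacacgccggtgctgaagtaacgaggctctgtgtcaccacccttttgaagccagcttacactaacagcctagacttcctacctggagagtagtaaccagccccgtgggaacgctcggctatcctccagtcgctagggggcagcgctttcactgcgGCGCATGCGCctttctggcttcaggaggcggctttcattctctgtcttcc
Uqcrh: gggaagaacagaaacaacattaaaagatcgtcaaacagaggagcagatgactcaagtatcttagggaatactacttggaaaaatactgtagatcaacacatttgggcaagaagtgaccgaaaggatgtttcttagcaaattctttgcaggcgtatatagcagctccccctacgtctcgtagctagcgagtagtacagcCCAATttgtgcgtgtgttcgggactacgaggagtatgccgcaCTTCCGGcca
RefSeq promoters were at hand for 66 of the 83 genes, 71 promoters in all. Of the genes described here, Atp5a1, Atp5mpl, Cox4i1, Cox4i2, Cox6a2, Ndufa4l2, Ndufb4c, Ndufs1, Sdhc and Uqcrc2 had none. Searched on both strands, the NRF1 core was in 6 of the 71 (8.45%) against 1.45% of all 32851 promoters, and the ETS core in 12 (16.9%) against 6.91%. The ERR element TCAAGGTCA was in 1 (1.41%, against 0.387%) and the shorter nuclear receptor site AAGGTCA, which the element contains, in 5 (7.04%, against 4.08%). CCAAT was in 30 (42.3%, against 33.8%), the HIF core ACGTG in 14 (19.7%, against 16.6%), the GC box GGGCGG in 23 (32.4%, against 32.7%), TATAAA in 7 (9.86%, against 12.4%) and the MEF2 element in 0 (0%, against 2.92%). The median GC content was 56.0%, against 52.4% for all promoters. Sdhb against atria, and Sdha and Cox7b against ventricles, had the largest called fall of their complex. Their promoters held neither the NRF1 core nor the ETS core and are not printed. A match is a run of letters and not a measured binding site.

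The HO parts were compared with each other to ask whether they differ as the chambers do. No subunit gene was called, and most stood slightly lower in atrium-like parts. Of all 15703 genes tested 0% were called higher and 0% lower (edgeR), with 889 genes at an unadjusted p under 0.05, and DESeq2 called 62 genes and limma 0. Of the 83 members edgeR, DESeq2 and limma called 0, with 4 at an unadjusted p under 0.05 in edgeR and none with an adjusted p below 0.750. The log2 fold change was negative for 67 of 83 genes, with a median of -0.14 against -0.03 for all genes, and scaled to the cardiomyocyte genes it was negative for 0, with a median of 1.56 against 1.504 for all genes. The gap between the medians, -0.11, became 0.02 without replicate 2 of the atrium-like parts, and was -0.28 at its widest, without replicate 2 of the ventricle-like parts.

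As FPKM, the libraries of the parts did not overlap for 36 of the 83 genes, all lower in atrium-like parts, where 9.25% of all genes were lower without overlap and 4% higher. With TMM-scaled CPM they were 8, again all lower, where 6.13% of all genes were lower and 5.92% higher without overlap. The largest falls in each complex were those of Ndufb8 (-0.51), Sdhb (-0.14), Uqcr11 (-0.23), Cox6a2 (-1.17) and Atp5a1 (-0.23), all with an edgeR adjusted p of 0.750 or more and all positive under the scaling to the cardiomyocyte genes. Ndufb8, an accessory subunit of the membrane arm of complex I, had 59.0, 84.8 and 74.6 FPKM in atrium-like parts and 123, 106 and 118 in ventricle-like parts, which did not overlap.

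Whether the chamber difference changed between E11.5H and HOs was tested as an interaction term in a fit of all 12 libraries. Of 16494 genes tested, 0.0243% were called higher and 0.127% lower (edgeR), and of the 83 members 0, with 8 at an unadjusted p under 0.05. DESeq2 called 1 member (1.20% of them), Ndufb8, lower, among 543 of all genes (3.29%), and limma called 0 members among 94 or 45 genes, by pseudocount. The median interaction was 0.07 against -0.03 for all genes. The highest term was that of Ndufa4l2 (2.35, SE 0.79, edgeR adjusted p = 0.317) and the lowest that of Cox6a2 (-1.79, SE 0.62, edgeR adjusted p = 0.333). Cox7a1 had -1.16 (SE 0.42, edgeR adjusted p = 0.354), and none of the members passed the threshold.

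Among the isoform pairs of complex IV, muscle isoforms took a larger share in atria than in ventricles for Cox6a2 and Cox7a1, and a smaller share in atrium-like parts than in atria. The share is the FPKM of the muscle isoform over the sum of its pair, which does not depend on the scaling of a library. Cox6a2, the heart-type subunit 6A, had 572, 463 and 571 FPKM in atria, 317, 356 and 327 in ventricles, 71.6, 172 and 292 in atrium-like parts and 347, 283 and 699 in ventricle-like parts. Its ubiquitous partner Cox6a1 had 829.7, 675 and 735 FPKM in atria, 893, 882 and 898 in ventricles, 807, 701 and 821 in atrium-like parts and 868, 724 and 938 in ventricle-like parts. Cox6a1 thus lay in a narrow range in all groups, while Cox6a2 spread widely between the HO libraries.

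The share of Cox6a2 was 41.8% ± 1.72 (SD, n = 3) in atria, 27.2% ± 1.38 in ventricles, 18.0% ± 9.15 in atrium-like parts and 33.1% ± 8.31 in ventricle-like parts. Atria and ventricles did not overlap, nor did the HO parts, in the opposite direction (exact two-sided permutation p = 0.1 for each, the smallest that 3 against 3 allow, and 0.154 adjusted over 20 tests of 5 pairs). Atrium-like parts stood below atria (exact permutation p = 0.1), and ventricle-like parts overlapped ventricles (exact permutation p = 0.3), with a difference of 5.91 percentage points that was 1.11 without replicate 3. Per gene, Cox6a2 was the only subunit gene called higher in atria than in ventricles, by 0.62 on the log2 scale (SE 0.10, edgeR adjusted p = 0.00217), and its partner Cox6a1 was lower (-0.32, edgeR adjusted p = 0.0313), a call that held in 1 of 6 fits that left out a library, that without replicate 1 of the atria, and that turned positive (0.24) under the scaling to the cardiomyocyte genes. Against the matching chambers Cox6a2 was not called, with -1.44 (SE 0.45, edgeR adjusted p = 0.0522) in atrium-like parts and 0.32 (edgeR adjusted p = 0.506) in ventricle-like parts, and the first was called without replicate 1 (-1.11) or without replicate 3 (-2.05) of the atrium-like parts, and the second was -0.20 without replicate 3 of the ventricle-like parts. Cox6a2 overlaps Itgad, which had at most 0.117 FPKM in any library.

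Cox7a1, the heart-type subunit 7A, had 170.1, 123 and 173 FPKM in atria, 129, 145 and 133 in ventricles, 21.4, 44.6 and 45.6 in atrium-like parts and 84.5, 56.0 and 112 in ventricle-like parts. Its partner Cox7a2 had 458, 373 and 428 FPKM in atria, 545, 537 and 522 in ventricles, 316, 261 and 279 in atrium-like parts and 342, 256 and 348 in ventricle-like parts. The share of Cox7a1 was 26.9% ± 1.996 in atria, 20.3% ± 1.06 in ventricles, 11.7% ± 4.62 in atrium-like parts and 20.7% ± 3.25 in ventricle-like parts (SD, n = 3). Atria stood above ventricles and atrium-like parts below ventricle-like parts and atria without overlap (exact permutation p = 0.1 for each), and ventricle-like parts and ventricles overlapped (exact permutation p = 0.9). Against atria, Cox7a1 fell by 1.92 on the log2 scale in atrium-like parts (SE 0.30, edgeR adjusted p = 0.00709), the largest fall of all 83 genes. Under the scaling to the cardiomyocyte genes its sign turned, to a log2 fold change of 2.03 higher in atrium-like parts. Against ventricles it was not called in ventricle-like parts (-0.78, SE 0.26, edgeR adjusted p = 0.0692), while Cox7a2 was (-0.85, edgeR adjusted p = 0.0110). Without replicate 3 of the ventricle-like parts Cox7a1 was called (-1.07), and the call of Cox7a2 was lost without any 1 of the ventricles (-0.86 to -0.87). In E11.5H the difference in share came with a lower Cox7a2 in atria (-0.42, SE 0.08, edgeR adjusted p = 0.00855, and 0.15 under the scaling to the cardiomyocyte genes), while Cox7a1 was not called (0.13, edgeR adjusted p = 0.621).

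**Figure D4:**
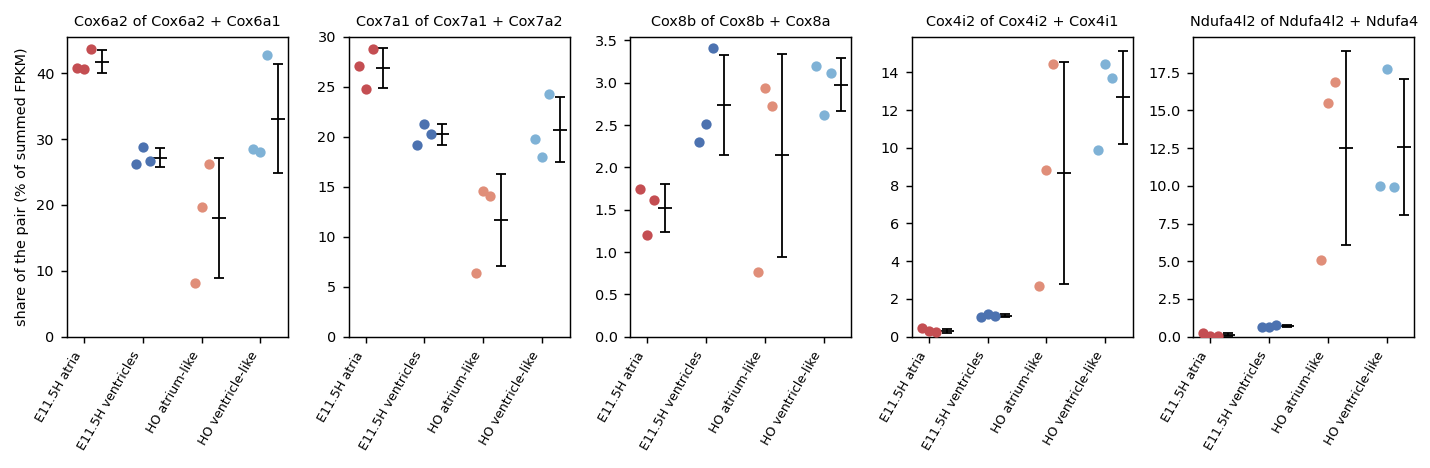
Share of the muscle or alternative isoform in the summed FPKM of its pair, in percent, for 5 pairs of complex IV by group, with points for libraries and bars for the mean ± SD (n = 3). Cox6a2 and Cox7a1 have their highest mean in atria and their lowest in atrium-like parts, and Cox4i2 and Ndufa4l2 are at most 1.19% in E11.5H and at least 2.68% in HOs.

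The promoters of this pair of isoforms are printed side by side, as the 250 bases before the RefSeq start on GRCm38.p6, 5′ to 3′ on the strand of the gene. The promoter of Cox7a1 lies on the plus strand of chromosome 7 at chr7:30183921-30184170, and its capitals mark 2 CCAAT boxes, both read in reverse as ATTGG. The promoter of Cox7a2 lies on the minus strand of chromosome 9 at chr9:79759854-79760103, and its capitals mark 1 GC box (GGGCGG).
Cox7a1: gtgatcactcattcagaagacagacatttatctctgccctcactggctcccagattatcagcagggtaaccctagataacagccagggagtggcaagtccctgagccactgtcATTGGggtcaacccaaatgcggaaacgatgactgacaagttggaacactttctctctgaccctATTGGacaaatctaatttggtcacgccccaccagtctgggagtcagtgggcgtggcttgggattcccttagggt
Cox7a2: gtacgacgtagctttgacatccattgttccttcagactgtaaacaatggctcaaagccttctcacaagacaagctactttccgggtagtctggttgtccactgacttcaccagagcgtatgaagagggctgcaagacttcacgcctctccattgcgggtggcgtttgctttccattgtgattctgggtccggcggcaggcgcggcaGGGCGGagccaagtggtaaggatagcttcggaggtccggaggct
Neither of the pair held the NRF1 core, the ETS core or the ERR element in this window.

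Cox8b, the heart-type subunit 8, was a minor form throughout, with a share of 1.202% to 1.74% in atria, 2.30% to 3.41% in ventricles, 0.762% to 2.94% in atrium-like parts and 2.62% to 3.19% in ventricle-like parts. It had 19.7, 11.4 and 16.3 FPKM in atria and 30.5, 34.0 and 43.4 in ventricles, and thus ran against Cox6a2 in E11.5H. Its log2 fold change between atria and ventricles was -1.26 (SE 0.25, edgeR adjusted p = 0.00833), beside -0.41 (SE 0.08, edgeR adjusted p = 0.00564) for its ubiquitous partner Cox8a, which became 0.16 under the scaling to the cardiomyocyte genes. In HOs neither was called against the matching chamber, with 0.39 and -0.23 for Cox8b and -0.08 and -0.37 for Cox8a, which was called against ventricles (-0.47) without replicate 3 of the ventricle-like parts.

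Cox4i2, the alternative form of the regulatory subunit 4 that is known for its response to oxygen, was among the 3 genes that rose in HOs. It had 4.24, 2.69 and 2.20 FPKM in atria, 10.4, 11.7 and 10.8 in ventricles, 19.6, 56.8 and 103 in atrium-like parts and 78.4, 98.5 and 123 in ventricle-like parts. The HO libraries all stood above the E11.5H libraries, and within E11.5H the ventricles above the atria. The log2 fold change was -1.91 (SE 0.30, edgeR adjusted p = 0.00235) between atria and ventricles, 4.43 (SE 0.66, edgeR adjusted p = 0.00613) between atrium-like parts and atria and 3.09 (SE 0.20, edgeR adjusted p = 0.00118) between ventricle-like parts and ventricles. Its share of the Cox4i pair was 0.228% to 0.441% in atria, 1.06% to 1.19% in ventricles, 2.68% to 14.4% in atrium-like parts and 9.87% to 14.5% in ventricle-like parts. The main form, Cox4i1, had 855 to 976 FPKM in E11.5H against 582 to 772 in HOs, and was called lower only against ventricles (-0.58, edgeR adjusted p = 0.0264), a call that was lost without any 1 of the ventricles (-0.58 to -0.60) or without replicate 1 of the ventricle-like parts (-0.62), while Cox4i1 was called against atria without replicate 1 of the atrium-like parts (-0.55). Bcl2l1, which overlaps Cox4i2, was called higher against atria (1.25, edgeR adjusted p = 0.0195) and not against ventricles (0.58, edgeR adjusted p = 0.267), both smaller than the folds of Cox4i2.

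Ndufa4l2, a paralog of the complex IV subunit Ndufa4 that is known as a hypoxia target, had 2.56, 0.617 and 0.704 FPKM in atria, 6.31, 5.86 and 7.39 in ventricles, 25.1, 88.8 and 105 in atrium-like parts and 78.6, 104 and 66.3 in ventricle-like parts. All HO libraries stood above all E11.5H libraries, and the HO parts overlapped. The log2 fold change was 5.93 (SE 0.84, edgeR adjusted p = 0.00548) against atria and 3.57 (SE 0.22, edgeR adjusted p = 0.00116) against ventricles, the largest of the 83 genes in both. Between atria and ventricles it was -2.39 (SE 0.53, edgeR adjusted p = 0.0133), a call lost without replicate 3 of the atria (-2.10). Shmt2 is a mitochondrial enzyme of one-carbon metabolism whose gene overlaps Ndufa4l2 on the opposite strand. In HO parts Shmt2 was not called against atria (0.26, edgeR adjusted p = 0.297) or ventricles (0.17, edgeR adjusted p = 0.301). Between the chambers of E11.5H it was called lower in atria (-0.44, edgeR adjusted p = 0.0102), the direction of Ndufa4l2 there. It had 35.3 to 45.8 FPKM in atria and 50.6 to 54.6 in ventricles. Whether reads of Shmt2 entered the values of Ndufa4l2 was not tested. Ndufa4 itself had 827 to 990.4 FPKM in E11.5H against 466 to 710.0 in HOs, and was called lower against atria (-0.71, edgeR adjusted p = 0.0192) and ventricles (-0.69, edgeR adjusted p = 0.0267). Both calls of Ndufa4 were lost without any 1 of the E11.5H libraries compared, with -0.64 to -0.80 against atria and -0.68 to -0.74 against ventricles, and the sign turned under the scaling to the cardiomyocyte genes.

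Cox6b2 had 1.88, 1.44 and 1.997 FPKM in atria, 2.68, 2.21 and 2.36 in ventricles, 8.32, 7.03 and 11.1 in atrium-like parts and 10.7, 6.65 and 16.9 in ventricle-like parts. It was low everywhere, and its HO libraries stood above those of E11.5H. It rose by 2.49 on the log2 scale (SE 0.46, edgeR adjusted p = 0.0112) against atria and by 2.15 (SE 0.47, edgeR adjusted p = 0.0208) against ventricles. The first call was lost without any 1 of the atria (2.34 to 2.58), and the second without any 1 of the ventricles (2.07 to 2.20) or replicate 1 of the ventricle-like parts (2.19). Of the Atp5g genes, which all code for the same mature subunit c, Atp5g2 took 12.2% to 13.8% of the summed FPKM in E11.5H against 16% to 22.2% in HOs. Of the 50-base words of Atp5g2, 38.3% also occurred in transcripts of other genes, mostly Gm10175. The part of shared reads in this share was not tested.

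Among the HO libraries, replicate 1 of the atrium-like parts had the lowest level of the cardiomyocyte list and the lowest share of Cox6a2, Cox7a1, Cox8b, Cox4i2 and Ndufa4l2 of its group. Replicate 3 of the ventricle-like parts had the highest level of that list and the highest shares of Cox6a2 and Cox7a1. Its share of Ndufa4l2 was the lowest of its group (9.92%), and its shares of Cox8b (3.12%) and Cox4i2 (13.7%) lay between those of the other ventricle-like replicates. The part of the cardiomyocyte level in these shares was not tested.

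Of 90 other genes of respiration, listed by pathway, most did not pass the test. In atria 24 were called lower than in ventricles and 1 higher, where 7.16% and 6.47% of all genes were. In atrium-like parts 25 were called lower than in atria and 3 higher, where 12.5% and 19% of all genes were. In ventricle-like parts 37 were called lower than in ventricles and 4 higher, where 13.8% and 15.7% of all genes were. The same shares of all genes apply to each list below. Calls of these lists are given only for the main fit with TMM scaling and all libraries. Of 13 genes of the citrate cycle, 8 were called lower in atria than in ventricles, 7 in the comparison of atrium-like parts with atria and 10 in that of ventricle-like parts with ventricles, with 0 higher and medians of -0.23, -0.60 and -0.77. Idh3a, the catalytic subunit of isocitrate dehydrogenase, had log2 fold changes of -1.60 against atria (SE 0.15, edgeR adjusted p = 0.00220) and -1.49 against ventricles (SE 0.20, edgeR adjusted p = 0.00540). Of 7 carriers and kinases of ADP, ATP and creatine, 4 were called lower in atria than in ventricles (median -0.29), 1 higher and 1 lower in atrium-like parts (median -0.39), and 1 higher and 5 lower in ventricle-like parts (median -1.06). Slc25a4, the ADP/ATP exchanger of muscle, was lower in both HO parts, by log2 fold changes of -2.14 (SE 0.30, edgeR adjusted p = 0.00561) and -1.23 (SE 0.12, edgeR adjusted p = 0.00224). Ckmt1, the ubiquitous mitochondrial creatine kinase, was at most 0.218 FPKM in E11.5H, 27.2 to 130.1 in atrium-like parts and 4.46 to 33.3 in ventricle-like parts.

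Of 6 chain genes outside the naming rule, 3, 2 and 3 were called lower in the same 3 comparisons and 0 higher, with medians of -0.27, -0.32 and -0.70. Cycs, cytochrome c, was lower by log2 fold changes of -1.06 (SE 0.19, edgeR adjusted p = 0.00988) against atria and -1.09 (SE 0.10, edgeR adjusted p = 0.00191) against ventricles. Assembly factors were called less evenly. For complex I, 2, 6 and 5 of 14 were called lower and 0 higher (medians -0.04, -0.63 and -0.56), and for complex V 0, 2 and 3 of 4 (medians -0.06, -0.76 and -0.77). For complex II 0 of 4 were called in any (medians 0.06, -0.27 and -0.20), and for complex III 0 of 6 in E11.5H, 1 lower in atrium-like parts and 1 higher in ventricle-like parts (medians 0.00, -0.50 and -0.35). For complex IV, of 18 factors, 1 was called higher and 2 lower in E11.5H, 2 higher and 2 lower in atrium-like parts and 1 higher and 3 lower in ventricle-like parts (medians -0.12, 0.04 and -0.28). Sco2, a copper chaperone of complex IV, rose by 1.77 (SE 0.36, edgeR adjusted p = 0.0144) against atria and by 1.17 (edgeR adjusted p = 0.0406) against ventricles.

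Of 10 regulators of mitochondrial genes, 2, 2 and 3 were called lower and 0 higher (medians -0.21, -0.35 and -0.59). Esrrg, a nuclear receptor that drives genes of oxidative metabolism in heart, was lower in atria than in ventricles (-0.71, SE 0.12, edgeR adjusted p = 0.00286) and lower in HOs than in atria (-3.42, SE 0.51, edgeR adjusted p = 0.00613) and ventricles (-2.18, SE 0.40, edgeR adjusted p = 0.0120). The coactivator Ppargc1a was called lower against ventricles (-1.60, SE 0.34, edgeR adjusted p = 0.0187) and not against atria (-1.98, edgeR adjusted p = 0.0642). Of 8 genes of the outer membrane and protein import, 3 and 2 were called lower and 0 higher in the first 2 comparisons, and 1 higher and 5 lower against ventricles (medians -0.18, -0.22 and -0.44). Between the HO parts and in the interaction 0 genes of these lists were called. The 13 subunits encoded by mitochondrial DNA were not found in the expression table under the names searched, and so were not analysed.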

How the data were processed

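RNA of 12 libraries was sequenced and, per the labels and the methods, mapped to mm10 (GRCm38) with STAR. The labels name an Illumina TruSeq kit, and the methods say that the Takara company prepared the libraries. What counted the reads, and whether by strand, is not given in the sources used here. The authors deposited expected counts (fragments per gene, not normalized, of which 23.8% were not whole) and FPKM. All 83 genes had a count that was not whole in at least 1 library, and all 50-base words of Ndufb4c also occurred in transcripts of Ndufb4, so these 2 cannot be separated.

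Samples were grouped by their labels. Rounded expected counts were tested over all genes by the quasi-likelihood test of edgeR 4.0.16 under R 4.3.3, with TMM scaling, genes kept by filterByExpr (minimum count 10) and calls at a Benjamini-Hochberg adjusted p under 0.05. Each comparison used its own libraries, and the interaction all 12. Isoform shares of the deposited FPKM were compared by exact permutation. DESeq2 1.42.0, limma 3.58.1 on log2(FPKM + 1) and log2(FPKM + 0.1), other scalings and filters, a replicate block and leaving out each library were alternatives. Named genes were the isoforms of complex IV, the Sdh genes, those with the largest called rise and fall in each complex and comparison (or the largest change where none was called) and up to 2 per pathway list. Ndufa6 was named after its values were seen. Members and lists were chosen with earlier results of these data known. The plot of single genes leaves out 1 subunit gene, which is not reported here but enters the counts and medians. Python 3.11.15 and matplotlib 3.10.9 drew the plots.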

Additional observations from a re-analysis of the deposited data

Results flagged for a closer look

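For 3 complex I genes, 3.61% of the 83, the chamber difference had opposite directions in E11.5H and HOs, with no overlap of the FPKM of the libraries in either. The same held for 378 of the 14030 genes tested in both (2.69%), so the share of members was near that of all genes. Ndufb11, a subunit of the membrane arm, had 229 to 271 FPKM in atria against 217 to 228 in ventricles, and 127 to 168 in atrium-like against 186 to 241 in ventricle-like parts. Ndufb4, a neighbour in the same arm, had 254 to 294 FPKM in atria against 224 to 244 in ventricles, and 154 to 166 in atrium-like against 195 to 242 in ventricle-like parts. The interaction of chamber and tissue on the log2 scale was -0.48 for Ndufb11 (edgeR adjusted p = 0.413), -0.45 for Ndufb4 (edgeR adjusted p = 0.400) and -0.44 for Ndufb4c (edgeR adjusted p = 0.551), none past the threshold, and all turned positive under the scaling to the cardiomyocyte genes. Ndufb4c shares its reads with Ndufb4 and is not a separate result.

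The isoform shares of Cox6a2 and Cox7a1 also differed between the chambers in opposite directions. The share of Cox6a2 was 14.6 percentage points higher in atria than in ventricles of E11.5H, while the difference between atrium-like and ventricle-like parts was -15.1 points. For Cox7a1 the differences were 6.63 and -9.02 points. The difference between the tissues was not tested for the shares. For the single genes the interaction missed the threshold (edgeR adjusted p = 0.333 for Cox6a2 and 0.354 for Cox7a1).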

How the results depend on the processing

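For the chambers of E11.5H the number of subunit genes called was 36 with DESeq2 (with 18.4% of all genes called), 75 with the scaling to the cardiomyocyte genes (64.4%), 0 with all 12 libraries in 1 fit (0.194%) and 15 to 43 without a library, and 3 with a log2 fold limit of 1. Between atrium-like parts and atria it was 67 with limma, with either pseudocount (34.8% and 35.6% of all genes), 83 with the scaling to the cardiomyocyte genes (93.2%), 8 to 57 without a library and 10 with the fold limit. Between ventricle-like parts and ventricles it was 83 with the scaling to the cardiomyocyte genes (92.8%), 19 to 65 without a library and 14 with the fold limit. Under that scaling all 83 were higher in the HO part in both comparisons with E11.5H, the reverse of the main direction. In the interaction it was 1 with DESeq2 (3.29%). The cause of these shifts was not tested, beyond fewer libraries in the fits without one. The other alternatives for these counts stayed within 1.5 times or at 0.

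With the replicate number as a block the counts were 23, 0, 29, 43 and 0 in the order of the report's 2 chamber comparisons, 2 HO against E11.5H comparisons and interaction. The block called 11.8%, 0%, 20.02%, 17.2% and 0.0303% of all genes. The labels do not say whether same-numbered HO parts came from the same HOs. Their deviations from the group means correlated at 0.04, 0.33 and 0.55, not every library correlated best with its own number, and the pairing of the HO parts is unknown. Other same-numbered libraries correlated at 0.0644 or less.

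With library sizes alone, 2 log2 fold changes reversed, Ndufa4 between the chambers of E11.5H (0.0228) and Atp5mpl in the interaction (-0.0147). Under the scaling to the cardiomyocyte genes the reversed values between the chambers of E11.5H were 0.0519 for Cox6b2, 0.15 for Cox7a2, 0.16 for Cox8a, 0.19 for Sdhd, 0.20 for Uqcrc2, 0.24 for Cox6a1, 0.25 for Atp5a1, 0.29 for Sdhb, 0.37 for Sdhc, 0.42 for Cox6b1, 0.44 for Cox4i1 and 0.49 for Ndufa4. Between the HO parts they were 0.31 for Cox6a2, 0.51 for Cox7a1, 1.05 for Ndufb8, 1.48 for Uqcr11, 1.53 for Atp5a1 and 1.60 for Sdhb. Between atrium-like parts and atria they were 2.03 for Cox7a1, 2.36 for Cox6a2, 2.88 for Ndufs1, 2.96 for Atp5k, 3.46 for Ndufa4, 3.47 for Uqcrh, 3.50 for Sdhb, 3.69 for Cox6b1, 3.79 for Sdha and Sdhc, 3.89 for Cox7a2, 3.90 for Cox4i1, 4.01 for Sdhd and 4.08 for Cox8a. Between ventricle-like parts and ventricles they were 1.84 for Atp5k, 1.91 for Ndufs1, 2.02 for Uqcrh, 2.03 for Sdha, 2.13 for Cox7b, 2.20 for Sdhb, 2.21 for Cox7a1, 2.23 for Sdhd, 2.24 for Cox7a2, 2.42 for Ndufa4, 2.43 for Sdhc, 2.50 for Cox6b1, 2.52 for Cox4i1, 2.73 for Cox8a, 2.83 for Cox8b and 2.93 for Cox6a1. In the interaction they were 0.48 for Ndufb8, 0.54 for Ndufb11, 0.64 for Ndufb4 and 0.66 for Ndufb4c. Without a library, the values that reversed ran from -0.216 to 0.0569 for Cox8a and from -0.0694 to 0.762 for Cox8b against atria, from -0.202 to 0.583 for Cox6a2 against ventricles, from -1.36 to 1.80 points for the share of Cox7a1 against ventricles and from -2.25 to 3.64 points for that of Ndufa4l2 between the HO parts.

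Of the other values of single genes, shares and medians, 1321 kept their direction and side of the threshold, 47 passed it only under the alternative, 82 lost it and 24 moved by more than the spread. With 3 libraries a group the shares could not reach an exact p under 0.1. Scaled by library total alone, without the TMM factor, the lowest total allowed a gene at 0 counts up to 0.125 CPM. This limit covers counting error only.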
